A study of Mus musculus with 2 samples.

Results

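Transcripts of the LIF receptor, JAK and STAT3 pathway were followed in mouse embryonic stem (ES) cells carrying an shRNA against Mll2 and in ES cells carrying a control shRNA. The pathway was taken as 10 genes of 18193 named on the array: the receptor chains Lifr and Il6st, the kinases Jak1, Jak2 and Tyk2, the transcription factor Stat3, the feedback inhibitor Socs3, the phosphatase Ptpn11, and the STAT3 target genes Pim1 and Bcl3. Members were the 27 probe sets that the platform annotation assigns to one of these symbols and to no other gene. No probe set shared between a member and another gene was listed.

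Leukaemia inhibitory factor (LIF) is the cytokine classically added to mouse ES cell cultures to hold them in self-renewal. It binds LIFR, which pairs with gp130, the product of Il6st, and brings together JAK kinases bound to both chains. The kinases phosphorylate the receptor and STAT3, and STAT3 then enters the nucleus and activates target genes, among them Socs3, whose product blocks the receptor complex in a negative feedback loop.

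Both groups were E14 cells, an established mouse ES cell line, infected with lentivirus for 24 h and selected with puromycin for 5 days. The first group carried an shRNA for Mll2, an H3K4 methyltransferase, and the second a control shRNA; the series title calls the comparison cells wild type. Total RNA from each was labelled and hybridised to 1 Affymetrix 3' expression array. With 1 array per group, differences have no replicate check, no test was made and no p-value is given, and the labels used here do not give the culture medium or the number of hairpins.

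The values are log2 signals. A floor was set at their 50th percentile, 6.02, and a value under it was raised to it, so that a ratio with 1 array under the floor is a bound, written "at least". A gene was represented by its probe set with the highest mean value, and ratios are Mll2 shRNA over control shRNA. The spread at a level is a robust SD of the log2 ratios over 500 genes of similar brightness; it contains real differences as well as noise and does not cover variation between cultures. In bulk RNA, fewer cells of a type and less RNA per cell cannot be told apart.

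The promoters of Lifr and Socs3 are shown because these 2 members had the largest ratios. The 250 bases before the gene start were taken from the RefSeq annotation of GRCm38.p6 and are written 5′ to 3′ on the gene's strand, in lower case, with any match to the STAT motif TTCNNNGAA in capitals. The table held 12 windows for all 10 members, with 2 starts for Lifr (chr15:7129322-7129571 and chr15:7140292-7140541, plus strand) and 1 for Socs3 (chr11:117969367-117969616, minus strand).

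Socs3: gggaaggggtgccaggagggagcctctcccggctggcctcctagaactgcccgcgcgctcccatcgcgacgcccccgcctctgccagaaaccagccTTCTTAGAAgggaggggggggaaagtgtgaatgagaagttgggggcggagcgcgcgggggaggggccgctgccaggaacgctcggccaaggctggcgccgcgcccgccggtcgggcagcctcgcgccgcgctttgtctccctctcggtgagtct

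Lifr, first start: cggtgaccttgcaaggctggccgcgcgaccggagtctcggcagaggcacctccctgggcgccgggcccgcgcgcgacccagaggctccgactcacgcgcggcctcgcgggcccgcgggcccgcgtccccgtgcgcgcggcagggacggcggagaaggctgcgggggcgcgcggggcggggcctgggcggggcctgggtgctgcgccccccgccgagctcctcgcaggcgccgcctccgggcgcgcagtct

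Lifr, second start: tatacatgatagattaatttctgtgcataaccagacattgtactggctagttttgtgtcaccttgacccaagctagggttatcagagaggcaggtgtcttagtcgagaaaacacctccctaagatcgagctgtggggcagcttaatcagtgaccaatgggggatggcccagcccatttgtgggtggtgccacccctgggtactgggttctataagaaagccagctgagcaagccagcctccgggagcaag

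The motif, which reads the same on both strands, was found in 1 of the 12 member windows of 300 bases, that of Socs3, where it begins 154 bases before the gene start. Of all 32851 windows, 8.3% held it. The stricter form TTCCNGGAA was in none of the member windows and in 1.15% of all windows. The starts of Lifr differ in composition: the first window of 300 bases has 53 CpG dinucleotides and 81.3% G and C, and the second 4 CpG and 53.3%, against a median of 7 CpG over all windows. The arrays do not measure which start was used, and a match to a motif is a description of the letters only.

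None of the 10 pathway genes differed by 2-fold or more between the arrays. Among the 11805 measured genes 2.45% did, 173 being higher and 116 lower in Mll2 shRNA cells. With so small a share, 10 genes are too few for this absence to set the members apart. After scaling on the spike-in controls, 258 genes were at least 2-fold higher and 82 lower. Lifr and Socs3 were more than 1.5-fold higher in Mll2 shRNA cells, against 7.4% of all measured genes that were at least 1.5-fold higher. In 8 of the 10 genes the ratio was above 0, and 2 genes, Stat3 and Ptpn11, were below it; of all measured genes 53.5% were above 0. The median log2 ratio of the members was 0.24, and that of all measured genes 0.03. Spike-in scaling raised the second median to 0.14 and the first to 0.35, and then Stat3 too lay above 0, which made 9 of 10 members against 68% of all measured genes.

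Of the 27 member probe sets, 21 lay above the floor on both arrays, 2 on 1 array and 4 on neither. Among the 21, the ratio was above 0 in 18 and below 0 in 3, whereas 52.4% of all 20966 probe sets that passed the floor in both groups had a ratio above 0. The 3 were 1 probe set of Stat3 and the 2 probe sets of Ptpn11 above the floor on both arrays. With spike-in scaling, 18 of 21 member probe sets were again above 0, against 66.4% of all such probe sets. The 21 come from 10 genes, so they are not independent readings. With 1 probe set per gene, Lifr, Socs3 and Il6st lay further from 0 than the spread at their level, which is 3 of 10 members; among all genes with no array under the floor this share was 33.5%. The count depended on the scaling. It was 2 of 10 (Lifr and Socs3) after quantile normalization or loess, and 7 of 10 with spike-in scaling, which added Jak1, Jak2, Tyk2 and Pim1 and under which 38.1% of all such genes lay outside their spread.

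**Figure D1:**
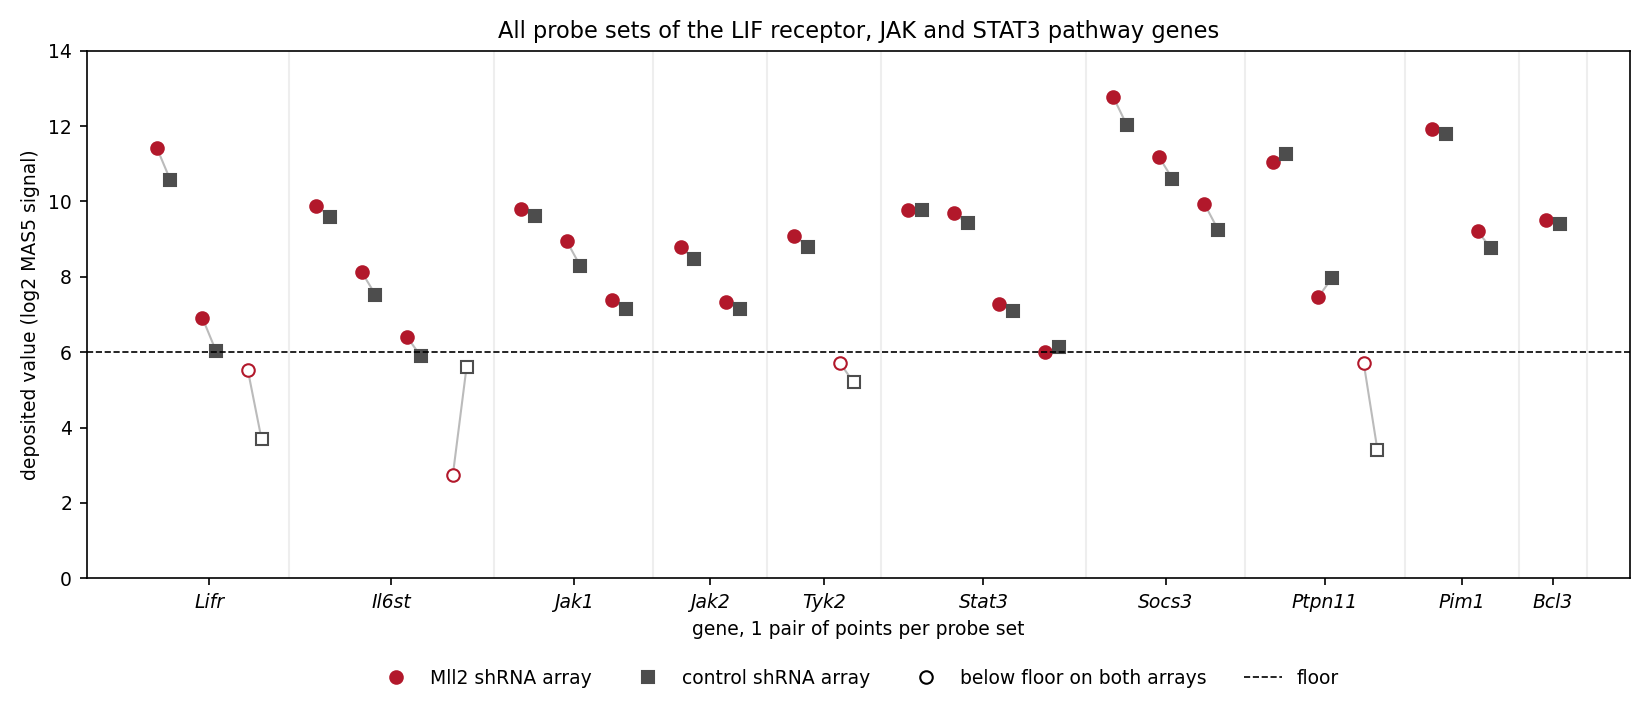
Deposited log2 signal (vertical axis) of each of the 27 probe sets of the 10 genes, with Mll2 shRNA cells as a circle and control shRNA cells as a square joined by a line. The 3 Socs3 pairs and the 2 Lifr pairs above the floor of 6.02 all have the circle higher, and the 4 pairs with open symbols lie under the floor.

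The receptor chains were examined first. Lifr encodes the chain that binds LIF with gp130. Its brightest probe set, 1454984_at, had a signal of 2746 in Mll2 shRNA cells and 1510 in control cells, a log2 ratio of 0.86 or 1.82-fold. The spread at this level was 0.29, and 292 of the 11805 measured genes (2.47%) had a higher ratio.

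A dimmer Lifr probe set, 1425107_a_at, gave 120 in Mll2 shRNA cells and 65.4 in control cells, 1.84-fold, although its control value was just above the floor signal of 64.7. Both probe sets thus had nearly the same ratio, 0.87 ± 0.01 on the log2 scale (SD over 2 probe sets). The last Lifr probe set, 1450207_at, was under the floor in both groups, with log2 signals of 5.52 (Mll2 shRNA) and 3.69 (control), and gives no ratio.

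Il6st encodes gp130, the signalling chain shared by LIF, interleukin-6 and related cytokines. Probe set 1452843_at had a signal of 947 in Mll2 shRNA cells and 776 in control cells, a log2 ratio of 0.29 that lay at the edge of the spread of 0.27. Probe set 1437303_at gave 279 in Mll2 shRNA cells and 184 in control cells, a larger log2 ratio of 0.60 with a spread of 0.42 at its level. The 2 probe sets averaged 0.44 ± 0.22 (SD).

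A further Il6st probe set, 1460295_s_at, was above the floor in Mll2 shRNA cells only (84.0 against 59.3 in control cells) and was higher by at least 1.3-fold. The measured Il6st probe sets therefore pointed the same way as those of Lifr, with smaller ratios. The remaining one, 1421239_at, went the other way but with both log2 signals under the floor, 2.74 (Mll2 shRNA) and 5.6 (control).

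**Figure D2:**
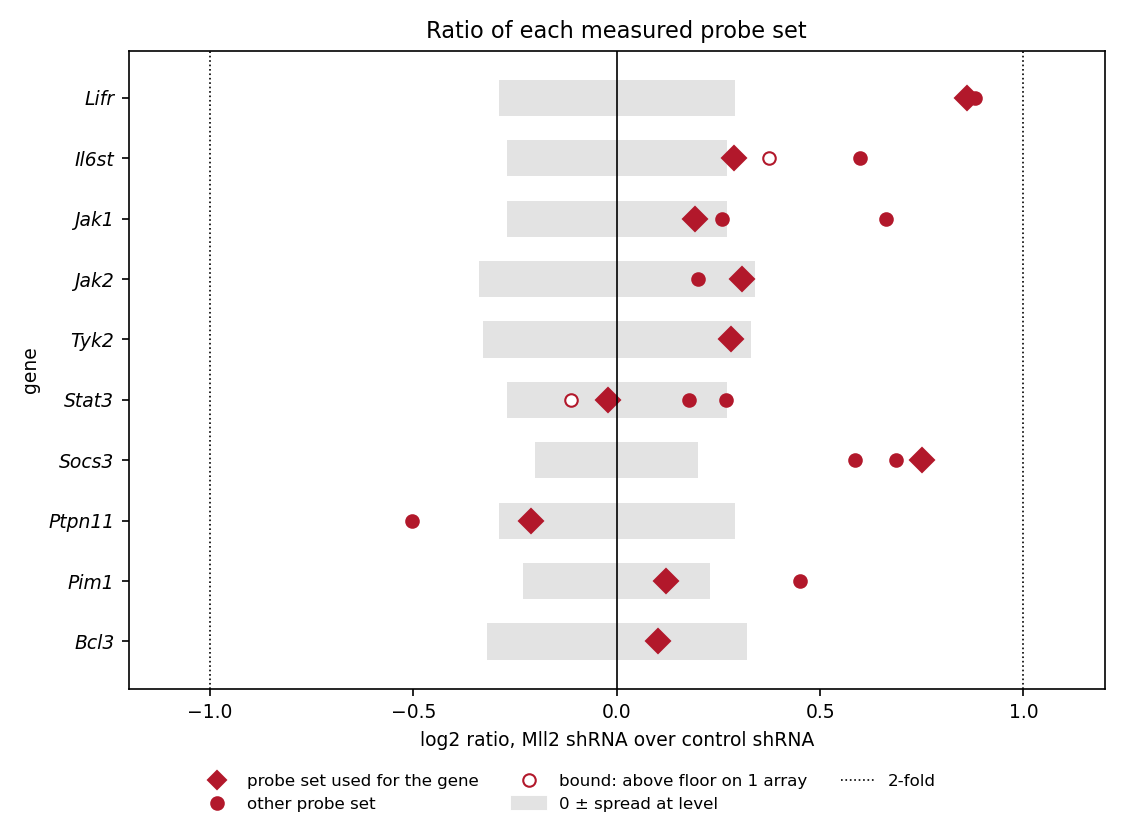
Log2 ratio of Mll2 shRNA over control shRNA (horizontal axis) for each measured probe set of the 10 genes, with grey bars for 0 ± the spread at the level of the probe set used. Lifr at 0.86 and Socs3 at 0.75 lie furthest from their grey bars, Il6st at 0.29 is just outside its own, and no point reaches the dotted lines at 2-fold.

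The receptor-bound kinases had small positive ratios. JAK1 is the kinase on which gp130 signalling mainly depends. Its 3 probe sets, all above the floor on both arrays, gave 891 in Mll2 shRNA cells against 780 in control cells (1433805_at), 493 in Mll2 shRNA cells against 312 in control cells (1433803_at), and 168 in Mll2 shRNA cells against 140 in control cells (1433804_at). The log2 ratios were 0.19, 0.66 and 0.26, an average of 0.37 ± 0.25 (SD over 3 probe sets). All were positive, but only the 0.66 of 1433803_at was beyond the spread at its level, 0.33.

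JAK2, a kinase best known from erythropoietin and growth hormone receptors and also recruited by gp130, was read by 2 probe sets. Jak2 had signals of 440 in Mll2 shRNA cells and 356 in control cells (1421066_at), and of 162 in Mll2 shRNA cells and 141 in control cells (1421065_at). The log2 ratios of 0.31 and 0.20 were both inside the spreads of 0.34 and 0.49 at their levels. Tyk2, a JAK family gene first known from interferon signalling, had a signal of 542 in Mll2 shRNA cells and 447 in control cells (1417306_at), a log2 ratio of 0.28 inside a spread of 0.33. Its other probe set, 1432576_at, was under the floor on both arrays.

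Stat3 encodes the transcription factor through which LIF sustains self-renewal. Its brightest probe set, 1426587_a_at, read nearly alike on the arrays, 870 in Mll2 shRNA cells and 883 in control cells, a log2 ratio of -0.02. The second, 1460700_at, gave 823 in Mll2 shRNA cells and 683 in control cells, a ratio of 0.27 with a spread of 0.29. Probe set 1459961_a_at gave 155 in Mll2 shRNA cells and 137 in control cells.

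The average over these 3 Stat3 probe sets was 0.14 ± 0.15 (SD), so they differ about as much among themselves as they differ from 0. Probe set 1424272_at was above the floor in control cells only, 63.6 in Mll2 shRNA cells against 70 in control cells, lower by at least 1.08-fold. The sign of the Stat3 ratio depended on the probe set and the scaling: it was 0.27 without the probe sets named with a letter suffix such as _a_at, 0.10 with spike-in scaling and -0.07 after quantile normalization.

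Socs3 encodes an SH2-domain protein that binds gp130 and JAKs and shuts off their signal. All 3 of its probe sets were above the floor on both arrays and higher in Mll2 shRNA cells. The brightest, 1455899_x_at, had a signal of 6993 in Mll2 shRNA cells and 4155 in control cells, a log2 ratio of 0.75 or 1.68-fold with a spread of 0.2 at its level. Among all measured genes, 437 (3.7%) had a higher ratio.

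The other Socs3 probe sets read 2336 in Mll2 shRNA cells against 1556 in control cells (1456212_x_at), and 982 in Mll2 shRNA cells against 610 in control cells (1416576_at). Their log2 ratios were 0.59 and 0.69, with spreads of 0.28 and 0.29 at their levels. In each of the 3 probe sets the ratio was thus beyond the spread at its level. The average over the 3 was 0.67 ± 0.08 (SD). The suffix of 2 of these probe sets marks probes that can also bind other transcripts, and 1416576_at, which has no such suffix, gave 1.61-fold.

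Ptpn11 encodes SHP2, a phosphatase that docks on phosphorylated gp130 and links it to the ERK cascade. It was the only member below 0 under each of the alternatives tried. Probe set 1451225_at had a signal of 2119 in Mll2 shRNA cells and 2452 in control cells, a log2 ratio of -0.21 inside a spread of 0.29. Probe set 1427699_a_at gave 176 in Mll2 shRNA cells and 250 in control cells, a ratio of -0.50 beyond a spread of 0.41.

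Both measured Ptpn11 probe sets were thus lower in Mll2 shRNA cells, with an average log2 ratio of -0.36 ± 0.21 (SD over 2 probe sets). The third, 1421196_at, read higher there, with log2 signals of 5.70 (Mll2 shRNA) and 3.41 (control), but neither reached the floor.

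Pim1 and Bcl3 are STAT3 target genes among the members, as is Socs3. Pim1, a serine/threonine kinase gene induced by cytokines, had signals of 3859 in Mll2 shRNA cells and 3547 in control cells (1435458_at). Its dimmer probe set, 1423006_at, gave 590 in Mll2 shRNA cells and 432 in control cells. The log2 ratios were 0.12 inside a spread of 0.23 and 0.45 beyond a spread of 0.34, so the probe sets share a direction but not a size.

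Bcl3, which encodes a nuclear IκB-family cofactor of NF-κB, had 1 probe set (1418133_at) with 726 in Mll2 shRNA cells and 677 in control cells. The log2 ratio of 0.10 was inside the spread of 0.32. Socs3, also a STAT3 target, thus had a larger ratio than Pim1 and Bcl3. That order was seen in each processing setting tried, but the differences between these genes were not tested.

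**Figure D3:**
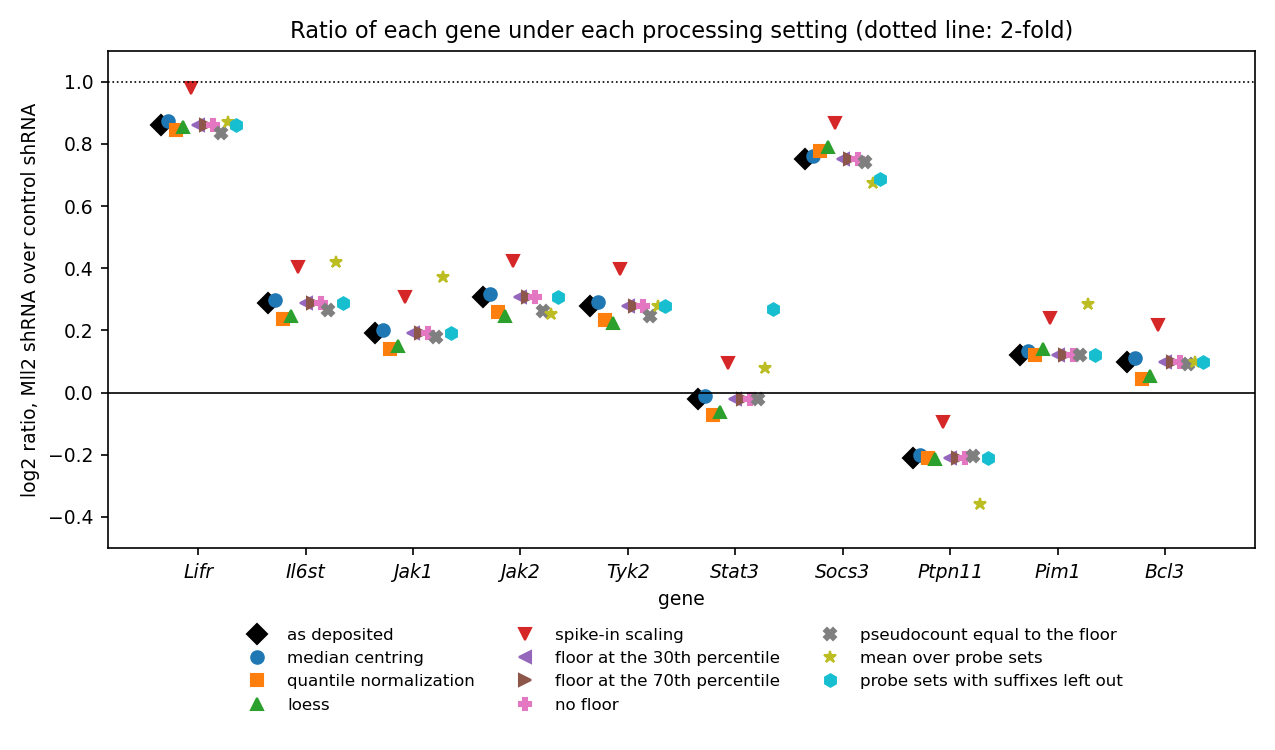
Log2 ratio (vertical axis) of each of the 10 genes under 11 processing settings, 1 symbol per setting. Lifr stays between 0.84 and 0.98 and Socs3 between 0.67 and 0.87, Ptpn11 stays below 0, and Stat3 lies on both sides of 0.

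Other genes around the pathway were described by lists of ligands, receptors, STATs, inhibitors, targets and downstream kinases. Of 89 such genes, 63 were measured. Only Pim2 was at least 2-fold lower, and none was at least 2-fold higher as deposited (Ifngr2 was after median centring or spike-in scaling); at least 2-fold lower were 0.983% of all measured genes. At 1.5-fold, 5 were higher and 4 lower, against 7.4% and 4.68% of all measured genes. The median was -0.03, with 29 genes above 0 and 34 below. This is 46% above 0, against 53.5% of all measured genes. Spike-in scaling turned this balance to 41 above and 22 below, or 65.1% above 0 against 68% of all measured genes. The median was then 0.09, against 0.14 for all measured genes.

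Of 11 ligands, 7 had a named probe set and 2 were measured. Lif itself had a signal of 148 in Mll2 shRNA cells and 155 in control cells (1421207_at, log2 ratio -0.07), and Ctf1, cardiotrophin 1, gave 185 in Mll2 shRNA cells and 189 in control cells. Both ratios were close to 0, and both became positive with spike-in scaling (0.05 and 0.09).

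Of 5 other receptor chains of the gp130 family, 3 were measured. Osmr, the oncostatin M receptor, was above the floor in Mll2 shRNA cells only, 92.2 against 52.2 in control cells, higher by at least 1.42-fold. Il6ra, the interleukin-6 receptor chain, was likewise above it in Mll2 shRNA cells only, 72.6 against 44.1 in control cells, higher by at least 1.12-fold. Cntfr, the ciliary neurotrophic factor receptor, gave 135 in Mll2 shRNA cells and 207 in control cells, a log2 ratio of -0.62 with a spread of 0.48. The receptor chains other than Lifr and Il6st were therefore dim and differed in direction.

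Among other STAT and JAK genes, 4 of 7 were measured and their median was 0.02. Stat5b had a signal of 131 in Mll2 shRNA cells and 83.1 in control cells, 1.57-fold higher, in the only one of its 2 probe sets above the floor. Stat4 was at -0.27, Jak3, a kinase of lymphoid cytokine receptors, at 0.12 and Stat6 at -0.07.

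The other inhibitors of JAK-STAT signalling had a median of -0.05, with 5 of 15 measured genes above 0 and 10 below. With spike-in scaling 9 were above and 6 below, and the median was 0.07. The shares above 0 were 33.3% and then 60%, against 53.5% and 68% of all measured genes. Socs2, a SOCS family gene best known for restraining growth hormone signalling, had signals of 2983 in Mll2 shRNA cells and 5438 in control cells (1449109_at). Its log2 ratio of -0.87, 1.82-fold lower, was beyond the spread of 0.22. All 4 Socs2 probe sets with both signals over the floor were lower in Mll2 shRNA cells, from -0.87 to -0.52, with an average of -0.71 ± 0.15 (SD), so Socs2 and Socs3 differed in direction.

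Cish, another SOCS family gene, had a signal of 183 in Mll2 shRNA cells and 255 in control cells, a log2 ratio of -0.48. Pias1, a SUMO ligase gene, was at -0.31 in the probe set used, but its 3 probe sets above the floor ranged from -0.31 to 0.71. Ptpn6, the phosphatase SHP1, was at 0.27 in one probe set and -0.23 in the other. For Pias1 and Ptpn6 the probe sets thus differ in direction.

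The other STAT3 target genes went both ways, with 7 of 16 measured genes above 0, 9 below and a median of -0.13 (16 of 17 were measured). With spike-in scaling 8 lay on each side. The shares above 0 were 43.8% and then 50%, against 53.5% and 68% of all measured genes. Klf4, a pluripotency transcription factor gene that LIF activates through STAT3, had signals of 8299 in Mll2 shRNA cells and 5496 in control cells (1417394_at), and of 2677 in Mll2 shRNA cells and 1709 in control cells (1417395_at). The log2 ratios of 0.59 and 0.65 were both beyond the spreads of 0.2 and 0.3. Fos, an immediate early gene, gave 4695 in Mll2 shRNA cells and 2939 in control cells, 1.6-fold higher.

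In the other direction, Pim2, a kinase gene related to Pim1, had a signal of 441 in Mll2 shRNA cells and 1406 in control cells, 3.19-fold lower in its 1 probe set. Myc gave 1106 in Mll2 shRNA cells and 1664 in control cells, 1.5-fold lower in its 1 probe set. Klf4 and Fos thus lay on the same side of 0 as Socs3, and Pim2 and Myc on the other.

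The ERK and PI3K branch below the receptor had a median of 0.07, with 9 of 15 measured genes above 0, 6 below and none at 1.5-fold. Of all measured genes, 53.5% were above 0 and 12.1% passed 1.5-fold in either direction. The largest ratios of the branch were 0.47 for Sos2, a Ras exchange factor, 0.46 for Pik3r1, the regulatory PI3K subunit, 0.39 for the adaptor Gab2 and -0.25 for the kinase Braf. Pik3r1 gave -0.07 in its other probe set above the floor.

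Receptors of other cytokines that use JAKs had a median of -0.04 over the 8 of 12 that were measured, and of 0.08 with spike-in scaling. Ifngr2, the second chain of the interferon gamma receptor, gave 134 in Mll2 shRNA cells and 67.2 in control cells, a log2 ratio of 0.99, with the control signal close to the floor signal of 64.7. Ifnar2, of the type I interferon receptor, gave 356 in Mll2 shRNA cells and 200 in control cells, 1.78-fold higher. Ifngr1, the first chain of the interferon gamma receptor, was lower, 292 in Mll2 shRNA cells against 435 in control cells, and Csf3r was lower by at least 1.41-fold. Receptor genes outside the gp130 family therefore also had ratios of the size seen for Lifr.

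**Figure D4:**
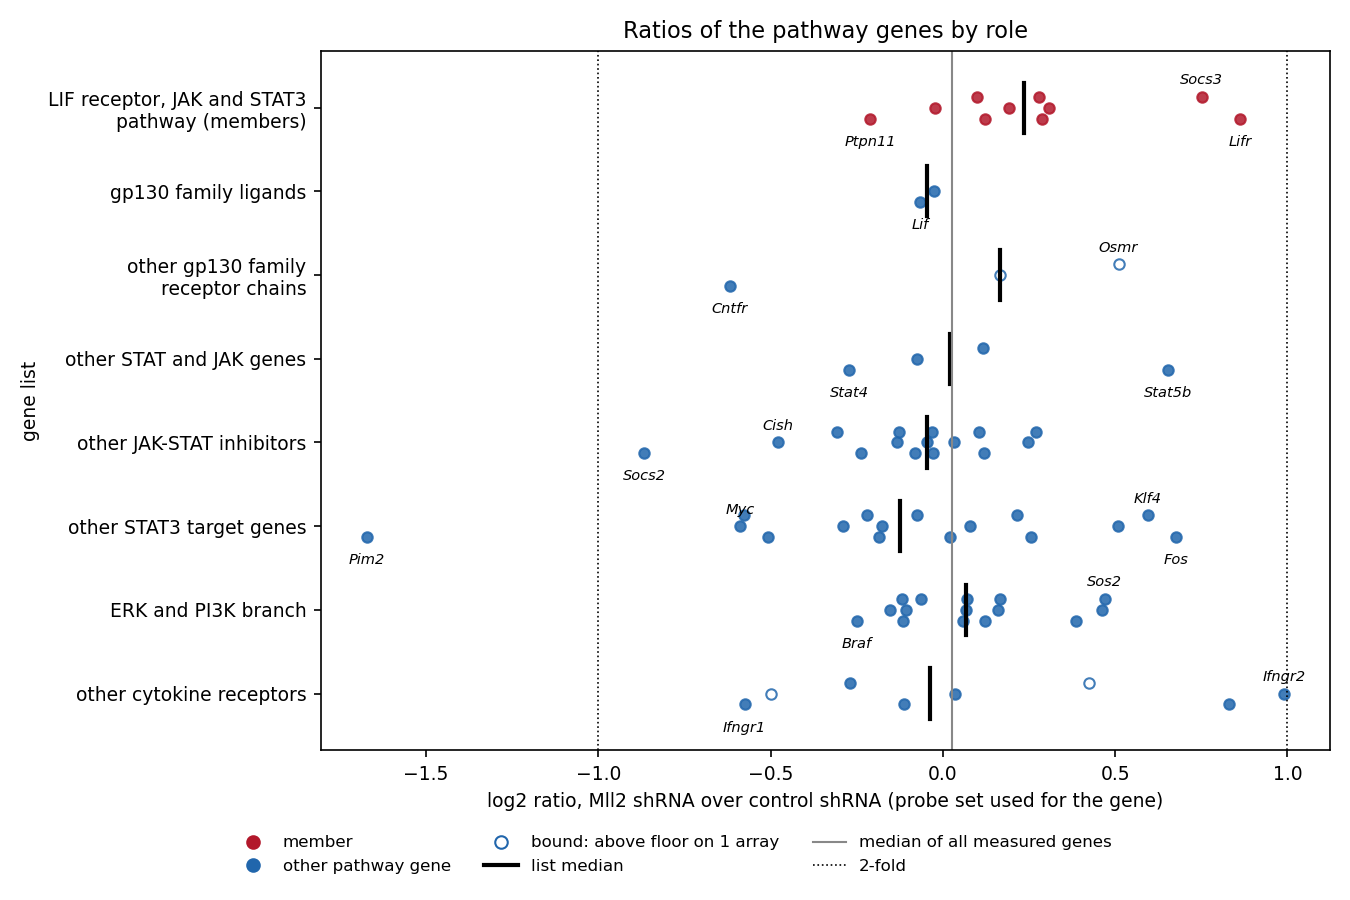
Log2 ratio of Mll2 shRNA over control shRNA (horizontal axis) of each measured gene, by list, with black bars for the list medians and a grey line for the median of all measured genes, 0.03. The members' median of 0.24 lies to the right of that line, and only Pim2 at -1.67 lies beyond 2-fold.

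The targeted transcript and the cell identity were checked on the same arrays. Mll2 has been used as a name for both Kmt2d and Kmt2b. Kmt2d had a signal of 335 in Mll2 shRNA cells and 736 in control cells (1435550_at), a log2 ratio of -1.14 beyond a spread of 0.33. Its other probe set, 1427555_at, was under the floor on both arrays. Kmt2b had 852 in Mll2 shRNA cells and 901 in control cells, a log2 ratio of -0.08 inside a spread of 0.27. All 12 ES cell markers (among them Pou5f1, Sox2 and Nanog) were measured. Their log2 ratio was below 0 in 8 and above 0 in 4, with a median of -0.39. Of all measured genes, 53.5% were above 0. The summed signal of the ES cell markers was 96804 in Mll2 shRNA cells and 113890 in control cells.

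Primed epiblast markers had ratios below 0 in 7 of 8 genes, with a median of -0.79. Of the 8, 2 were at least 2-fold lower, and the 1 above 0 was at least 2-fold higher. Past 2-fold in either direction were 2.45% of all measured genes. Dnmt3b is in both this list and the ES cell list. The primed epiblast markers had a summed signal of 12382 in Mll2 shRNA cells and 17944 in control cells. Trophoblast markers (7 of 8 measured) summed to 11124 in Mll2 shRNA cells and 15897 in control cells. All these marker sums take the brightest probe set of each marker that has one, including markers under the floor on both arrays. They therefore cover more than the measured markers. Fibroblast or feeder markers (10 with a probe set, 5 measured) summed to 881 in Mll2 shRNA cells and 854 in control cells. Primitive endoderm markers (8 with a probe set, 6 measured) summed to 5625 in Mll2 shRNA cells and 5906 in control cells. Haematopoietic markers (7 of 8 with a probe set, 4 measured) summed to 308 in Mll2 shRNA cells and 428 in control cells. Among all these markers, Itgam alone was listed at 0 on an array. As a sign of RNA quality, the 3' minus 5' log2 signal of the actin control probe sets was 0.77 in Mll2 shRNA cells and 0.96 in control cells, and that of Gapdh 0.06 in Mll2 shRNA cells and 0.05 in control cells. The part of these cell states and of RNA quality in the ratios of Lifr, Socs3 and the other members was not tested.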

How the data were processed

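Messenger RNA was measured on 2 Affymetrix arrays, 1 per group, and groups follow the treatment labels. The deposited values are log2 signals made with MAS5, per the submitters' processing notes; the MAS5 version is not given in the sources used here, nor is any further step. Both arrays had a 2% trimmed mean signal of 500.0 and a lowest value of 0. MAS5 subtracts mismatch probes, which makes dim probe sets noisy, and the number of arrays limits the precision.

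After removal of 64 control probe sets, 45037 remained, of which 34945 had 1 gene symbol, 932 several and 9160 none listed. Symbols were updated through the Entrez number to RefSeq GRCm38.p6 for 34741. The floor, fold threshold and spread (1.4826 times the median absolute deviation) are described in the report. Genes named were all members, up to 4 per other list with the ratios furthest from 0, Lif, Osmr and Klf4, and Kmt2d and Kmt2b as possible targets; 3 ES cell markers are named as examples. The members, lists and settings were chosen with earlier results of these data known. The steps were checked on simulated data with the same noise at all signal levels and with changes only in bright genes. That check does not cover the noise of signals close to the floor.

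Alternatives were median centring, quantile normalization, loess (limma 3.58.1 in R 4.3.3), spike-in scaling on 18 control probe sets, other floors, a pseudocount, the mean over probe sets, omission of suffixed probe sets and other fold thresholds. Python 3.11.15, numpy 2.4.6, pandas 2.3.3, scipy 1.17.1 and matplotlib 3.10.9 were used. A signed ratio is Mll2 shRNA minus control shRNA on the log2 scale.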

Additional observations from a re-analysis of the deposited data

How the results depend on the processing

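No member reached 2-fold as deposited or under the 4 other scalings, the other floors, the pseudocount, the mean over probe sets or the omission of suffixed probe sets; with the threshold at 1.5-fold, 2 did, both higher. The number of members outside the spread at their level was 3 as deposited or after median centring, 2 after quantile normalization or loess and 7 with spike-in scaling. The members' median stayed between 0.19 and 0.35. Each member's ratio moved by less than the spread at its level, except Stat3 without suffixed probe sets (0.27). Of the other pathway genes, 1 passed 2-fold as deposited, 2 after median centring or spike-in scaling (Pim2 and Ifngr2), 3 with no floor and 9 at 1.5-fold. Over all genes, 173 were higher and 116 lower as deposited; these counts were 494 and 482 with a lower floor (30th percentile), 50 and 38 with a higher one (70th), 1753 and 1744 with no floor, 87 and 70 with a pseudocount, 873 and 553 at 1.5-fold and 27 and 18 at 3-fold. No paired analysis was possible because each group has 1 array, and for the same reason no array could be left out. Signals close to background limit, among others, the ratios of Osmr, Il6ra, Csf3r, Stat5b, Ifngr2 and the dimmer Lifr probe set.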
